A study of Rattus norvegicus with 30 samples.

Results

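Myogenic regulators and developmental muscle genes were followed in repaired rat plantaris tendons, beside Myh4, the myosin heavy chain of mature fast fibres. The genes were chosen by name as Pax7, Myod1, Myog, Myf5, Myf6, Myh3, Myh8, Chrna1 and Ncam1. Of these 9 genes, 8 were among the 13124 genes of the count table, and Pax7 was not analysed here. Their level was read in 30 tendons. Rats were 3-month-old male Sprague Dawley animals. Control tendons (n = 3) came from rats with neither surgery nor compound. Every other rat had a full-thickness plantaris tenotomy with immediate repair and was gavaged with GSK2894631A, an inhibitor of hematopoietic prostaglandin D synthase, or with its vehicle. These repaired groups were 7D 0 mg/kg (n = 5), 7D 2 mg/kg (n = 4), 7D 6 mg/kg (n = 3), and 21D 0, 2 and 6 mg/kg (n = 5 each), named by days after repair and dose. The tendon was cut away from the muscle and the heel bone before RNA was taken, so the tissue is labelled tendon and not muscle. In such whole-tissue RNA, fewer muscle cells and less RNA per muscle cell cannot be told apart.

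Skeletal muscle is rebuilt by satellite cells, which activate Myod1 and Myf5, divide, switch on Myog and fuse. Myf6 (MRF4) is kept up in adult fibres. New fibres make embryonic myosin (Myh3) and then perinatal myosin (Myh8) before adult myosins such as Myh4 take over, and fibres that have lost their nerve spread the acetylcholine receptor (alpha subunit Chrna1) and Ncam1 over their surface. Ncam1 is also made by Schwann cells and other cells outside muscle.

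The myogenic factors are basic helix-loop-helix proteins that bind the E-box, CANNTG, which reads alike on both strands. RefSeq promoters of the GRCr8 build were found for 6 of the 8 measured genes and for Myh4, and those of Myod1 and Ncam1 are named only. The files themselves use the older rn6 build, on which Myh3, Myh8 and Myh4 all lie on chromosome 10, Myf5 and Myf6 on chromosome 7, Chrna1 on chromosome 3, Myog on chromosome 13, Myod1 on chromosome 1 and Ncam1 on chromosome 8. Shown here, as examples, are the 250 bases before the start of a regulator, a receptor subunit and an embryonic myosin, 3 of the genes compared with Myh4 below. Capitals mark every CANNTG.
Myog (chr13:48297226-48297475, plus strand): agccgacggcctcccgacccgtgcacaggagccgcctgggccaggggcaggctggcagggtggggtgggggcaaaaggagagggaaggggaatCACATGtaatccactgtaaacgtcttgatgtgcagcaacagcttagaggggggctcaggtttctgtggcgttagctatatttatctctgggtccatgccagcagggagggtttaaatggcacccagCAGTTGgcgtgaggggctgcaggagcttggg
Chrna1 (chr3:78877354-78877603, minus strand): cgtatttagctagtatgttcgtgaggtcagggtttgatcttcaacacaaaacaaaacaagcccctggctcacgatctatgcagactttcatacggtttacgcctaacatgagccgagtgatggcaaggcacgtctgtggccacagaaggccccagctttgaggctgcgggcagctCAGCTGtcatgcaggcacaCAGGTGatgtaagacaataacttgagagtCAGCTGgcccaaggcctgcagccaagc
Myh3 (chr10:52268935-52269184, plus strand): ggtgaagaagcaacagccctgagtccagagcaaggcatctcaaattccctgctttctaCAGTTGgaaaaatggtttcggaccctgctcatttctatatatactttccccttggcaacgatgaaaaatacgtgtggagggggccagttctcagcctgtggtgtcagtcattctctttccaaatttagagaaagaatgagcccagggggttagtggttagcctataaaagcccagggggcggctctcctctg
The Chrna1 stretch held 3 E-boxes, of which 2 were CAGCTG, a form that is itself a CANNTG. The Myog stretch held 2 and the Myh3 stretch 1. Myf6 had 1, Myh4 had 2, and Myf5 and Myh8 had 0 in this window. Of all 33469 rat promoters of the same length, 65.5% held a CANNTG and 12% a CAGCTG, so a match is a description and not a binding site.

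Total counts were 12405741 to 49909374 per tendon, at which 3 counts equal 0.0562 to 0.245 CPM (counts relative to library size, scaled by TMM). Mature muscle genes took very different shares of these counts. Together, 26 such genes and Myh4 made up 19.6 to 27.6% of a control library. Their share was 0.174 to 1.28% at 7D 0 mg/kg, 0.00921 to 0.0113% at 7D 2 mg/kg and 0.00983 to 0.0121% at 7D 6 mg/kg, and at 21 days it spread from 0.0681 to 9.78%. The 21D 0 mg/kg replicate 2 stood lowest at 21 days, followed by 21D 6 mg/kg replicates 3 and 5 with 0.339 and 0.428%. TMM factors were 0.599 to 0.788 in controls and 0.950 to 1.095 in repaired tendons. Scaling by total counts alone raised the median change against control by 0.501 to 0.593 log2 units, and 75.6% instead of 50.1% of the genes called at 7D 0 mg/kg were then higher, with shifts of the same size in the other 5 repaired groups (74.1 to 77.9% instead of 48.0 to 51.3%). Markers of tendon (9 of 10 in the table) summed to 9520 to 37510 CPM in controls and 22320 to 53550 CPM in repaired tendons, and none was at 0 counts.

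The factors that specify and differentiate muscle were present in control tendons and lower 7 days after repair. Myod1, which commits cells to the muscle lineage, had 28.0, 29.99 and 55.1 CPM in the 3 control tendons and 4.34, 5.62, 0.699, 1.48 and 1.09 CPM in the 5 tendons of 7D 0 mg/kg. The groups did not overlap, and Myod1 fell by 3.83 ± 0.901 (log2, SE) with an edgeR adjusted p of 0.000656. Myf6, the factor of adult fibres, had 233, 182 and 255 CPM in controls against 11, 15.2, 4.95, 5.68 and 4.47 CPM, a fall of 4.75 ± 0.828 (edgeR adjusted p = 1.71e-05). Myog, the differentiation factor, had 15.0, 9.54 and 36.9 CPM in controls and 4.86, 4.11, 0.867, 3.16 and 1.39 CPM at 7D 0 mg/kg. It fell by 2.83 ± 0.749 (edgeR adjusted p = 0.00166), again without overlap. Myf5, the early determination factor, averaged 2.99 CPM in controls before TMM scaling, just under the mean of 3 CPM that a gene needed to be tested, and in the fit with no filter it fell by 3.04 (edgeR adjusted p = 0.00162).

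**Figure D1:**
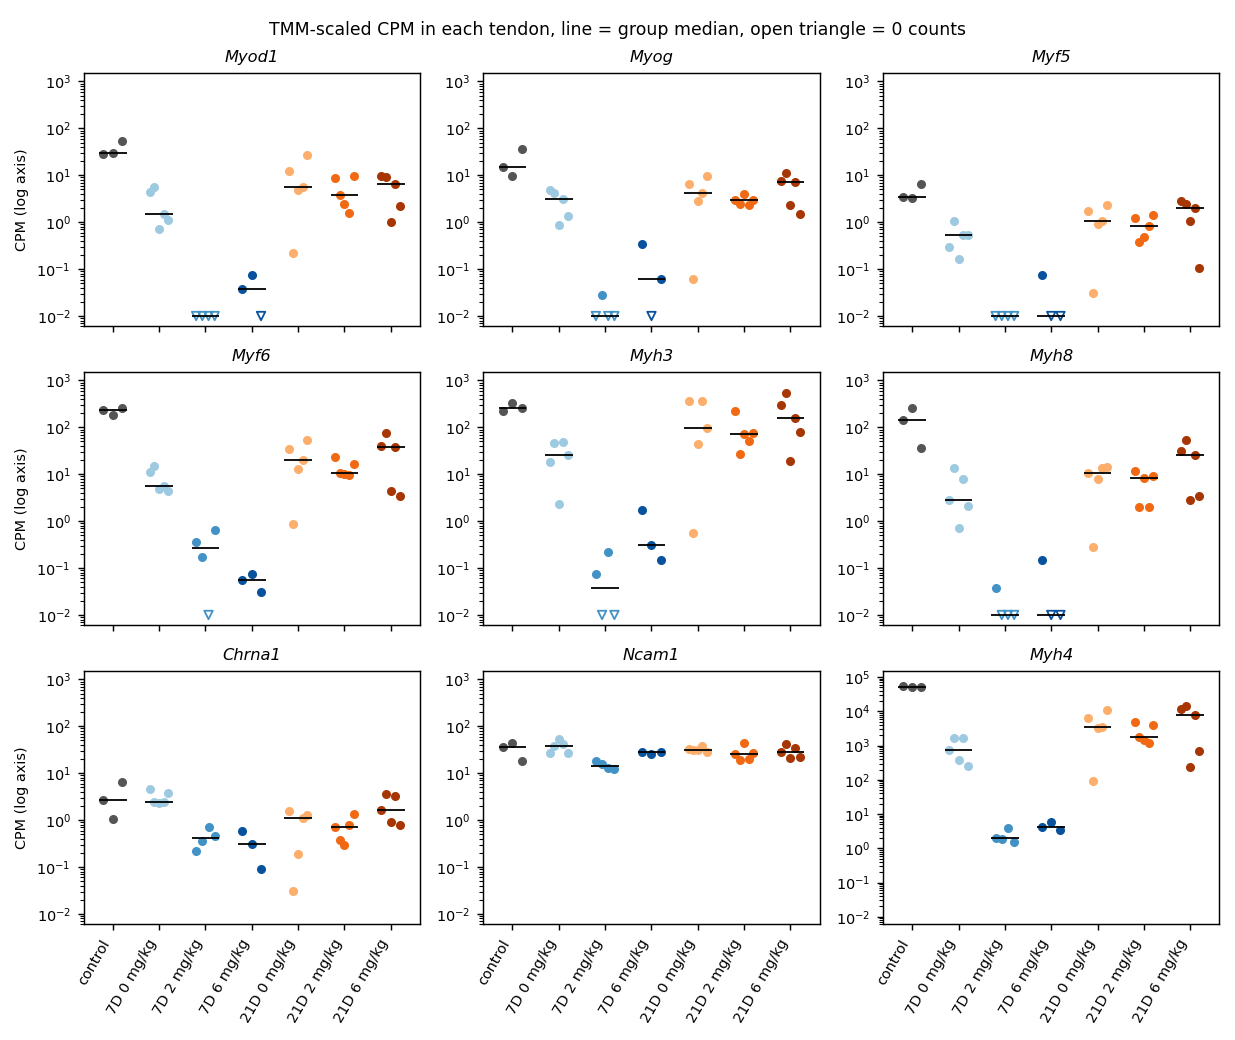
TMM-scaled CPM (log axis) of the 8 measured genes and Myh4 in each of the 30 tendons by group, with the group median as a line and 0 counts as open triangles. Most genes dropped to a few counts or none in the 7D 2 and 6 mg/kg tendons and were measurable again at 21 days, while Ncam1 stayed between 12.3 and 53.7 CPM throughout.

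Developmental myosins moved the same way. Myh3, the embryonic heavy chain, had 223, 338 and 255 CPM in controls and 18.7, 46.4, 2.35, 48.7 and 26.0 CPM at 7D 0 mg/kg, a fall of 3.26 ± 1.06 (edgeR adjusted p = 0.00825). Myh8, the perinatal heavy chain, had 140, 258 and 36.0 CPM in controls and 2.77, 13.7, 0.699, 7.88 and 2.11 CPM, a fall of 4.74 ± 0.957 (edgeR adjusted p = 0.000104). Neither gene overlapped between the groups. Myh4 itself had 54470, 49910 and 50360 CPM in controls and 749, 1722, 387, 1633 and 254 CPM, and fell by 5.76 ± 1.05 (edgeR adjusted p = 2.91e-05). The 3 heavy chains belong to 1 gene family on the same chromosome, and whether short reads were split between them was not tested, so their counts are uncertain to that extent.

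Chrna1 and Ncam1 did not pass the test at 7D 0 mg/kg. Chrna1 reached the mean of 3 CPM before TMM scaling in no group but 7D 0 mg/kg, so it was tested through that group alone. Chrna1 had 2.69, 1.08 and 6.45 CPM in controls and 4.64, 2.47, 2.35, 2.46 and 3.70 CPM at 7D 0 mg/kg, and the groups overlapped (difference -0.10 ± 0.713, edgeR adjusted p = 0.904, and 0.60 with scaling by total counts alone). Ncam1 had 36.4, 43.8 and 18.2 CPM in controls and 27.4, 38.2, 53.7, 41.0 and 27.0 CPM (0.19 ± 0.274, edgeR adjusted p = 0.551). With scaling by total counts alone its difference was 0.73 and passed the test (edgeR adjusted p = 0.0258), which is close to the shift of the median gene there. In all, 5 of the 7 genes tested were lower at 7D 0 mg/kg, against 35.6% of the 12558 genes tested.

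The doses differed at 7 days. Against control, 7 of 7 genes were lower in 7D 2 mg/kg and 6 of 7 in 7D 6 mg/kg, where 34% and 33.8% of all genes were. The fall of Ncam1 in 7D 2 mg/kg (-1.15, edgeR adjusted p = 0.000973) no longer passed with scaling by total counts alone (-0.64, 0.0559). Myod1 had 0 counts in each of the 4 tendons of 7D 2 mg/kg, at least 196-fold below control against a floor of 3 counts per tendon, and 2, 1 and 0 counts in 7D 6 mg/kg. Myog had 0, 1, 0 and 0 counts in 7D 2 mg/kg and 18, 0 and 2 in 7D 6 mg/kg. Myf5 had 0 counts in all 4 tendons of 7D 2 mg/kg and 4, 0 and 0 in 7D 6 mg/kg.

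The myosins had few counts as well. Myh3 had 2, 0, 4 and 0 counts in 7D 2 mg/kg and 94, 4 and 5 in 7D 6 mg/kg, and Myh8 had 1, 0, 0 and 0 and then 8, 0 and 0. Myh4 was still counted in every one of these tendons, with 56, 67, 71 and 23 counts in 7D 2 mg/kg and 227, 76 and 114 in 7D 6 mg/kg. The 7D 6 mg/kg replicate 1, the most deeply sequenced tendon, held most of the counts of Myog, Myh3 and Myh8 in its group. It also stood highest there after scaling, with Myh3 at 1.76 CPM against 0.303 and 0.152 CPM. Myog was at 0.337 CPM against 0 and 0.0608 CPM, and the cause was not tested. Myf6 had 10, 6, 0 and 10 counts in 7D 2 mg/kg and 3, 1 and 1 in 7D 6 mg/kg.

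Between doses at 7 days, all 7 genes passed the F-test across the 3 doses, where 2.05% of all genes did, and Ncam1 lost that call without 7D 2 mg/kg replicate 4 or 5 (edgeR adjusted p = 0.053 and 0.0606). All 7 were lower in 7D 2 mg/kg than in 7D 0 mg/kg, where 1.45% of all genes were. The direct comparison of Myh3 gave an edgeR adjusted p of 0.0064, with mean CPM of 28.4 ± 19.5 (SD, n = 5) at 0 mg/kg and 0.0731 ± 0.103 (SD, n = 4) at 2 mg/kg. Ncam1 had 18.3, 15.9, 12.7 and 12.3 CPM in 7D 2 mg/kg, below every tendon of 7D 0 mg/kg, and was 1.34 ± 0.259 log2 units lower than there (-1.34, edgeR adjusted p = 0.00531). Chrna1 had 0.221, 0.365, 0.710 and 0.450 CPM in 7D 2 mg/kg, below all tendons of 7D 0 mg/kg (-2.87 ± 0.761, edgeR adjusted p = 0.0422), but in the 8 fits that each left out 1 tendon and still tested it, the call was lost (edgeR adjusted p 0.0579 to 0.133). Chrna1 was tested only through 7D 0 mg/kg, the higher group here. Its call and its place among these 7 genes are therefore no independent support. Myh8 lost its call without 7D 2 mg/kg replicate 2 or 5 (edgeR adjusted p = 0.062 and 0.0528). Mature muscle genes moved with these results: their list summed to 1249 to 10410 CPM at 7D 0 mg/kg but 87.1 to 107 CPM at 7D 2 mg/kg, with no listed gene at 0 counts in any tendon, and their part in the result was not tested.

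Against 7D 0 mg/kg, 7D 6 mg/kg gave 1 lower gene of 7, Myf6 (edgeR adjusted p = 0.024), where 0.39% of all genes were lower. Mature muscle genes moved with it, with 15 of 26 lower (median -6.45) beside Myh4 (-7.73), and their part in the result was not tested. The Myf6 call was lost when any of the 3 tendons of 7D 6 mg/kg was left out (edgeR adjusted p = 0.287, 0.174 and 0.262). DESeq2 called 6 of 7 and 194 genes in all, against 49 in edgeR. No gene of the 7 was called between 6 and 2 mg/kg by edgeR or by DESeq2, and 1 of 7 (Ncam1) had an unadjusted p under 0.05.

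At 21 days Myf6, Myog and Myh8 were lower than control at each dose, and the embryonic myosin was called at none. Myh3 had 372, 0.567, 44.5, 368 and 97.6 CPM at 21D 0 mg/kg, then 227, 26.6, 73.1, 50.3 and 74.2 CPM at 21D 2 mg/kg, then 297, 528, 18.8, 160 and 81.5 CPM at 21D 6 mg/kg. Tendons of each group overlapped the controls. Its differences from control were -0.62 ± 1.04, -1.59 ± 1.03 and -0.33 ± 1.04 (edgeR adjusted p = 0.608, 0.172 and 0.799). With scaling by total counts alone the last of these turned to 0.12, and in a fit of only the 2 groups compared the 21D 2 mg/kg difference of -1.56 passed the test (edgeR adjusted p = 0.043).

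Myh4 had 6499, 93.0, 3348, 3544 and 11240 CPM in 21D 0 mg/kg, with ranges of 1164 to 4856 CPM at 21D 2 mg/kg, then 231 to 14770 CPM at 21D 6 mg/kg, all below the lowest control. It was lower in each of these groups, by 3.38 ± 0.961, 4.29 ± 0.990 and 2.87 ± 0.948 log2 units (-3.38, -4.29 and -2.87, edgeR adjusted p = 0.00343, 0.000478 and 0.0105), the last of which was lost in a fit of those 2 groups alone (edgeR adjusted p = 0.0724).

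Of the 7 genes, 4, 5 and 4 were lower than control in 21D 0, 2 and 6 mg/kg, against 33.7%, 35.3% and 33.3% of all genes. Myf6 was lower in each (-3.20, -4.00 and -2.79, edgeR adjusted p = 0.000979, 0.000111 and 0.00308), and its tendons did not overlap with controls. Myh8 was also lower in each (-3.97, -4.45 and -2.61, edgeR adjusted p = 0.000638, 0.000207 and 0.0131), but in 21D 6 mg/kg it ran from 2.86 to 54.8 CPM, overlapped the control with 36.0 CPM, and lost the call without control replicate 3 (edgeR adjusted p = 0.1). Myog was lower in each (-2.14, -2.79 and -1.77, edgeR adjusted p = 0.0134, 0.00197 and 0.0378), and without control replicate 4, which held 36.9 CPM, the calls at 0 and 6 mg/kg were lost (edgeR adjusted p = 0.131 and 0.273). In 21D 6 mg/kg the Myog call was also lost without replicate 3 or 5 of that group (edgeR adjusted p = 0.082 for each) and in DESeq2 (adjusted p = 0.051). Scaling by total counts alone ended the Myog calls at 0 and 6 mg/kg (edgeR adjusted p = 0.0652 and 0.138), as did a fit of only the 2 groups compared (0.0914 and 0.0609).

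Myod1 had 12.2, 0.220, 4.87, 5.64 and 26.7 CPM in 21D 0 mg/kg, all below the lowest control, and narrowly missed the test (-1.93 ± 0.858, edgeR adjusted p = 0.0527). The edgeR adjusted p was 0.0106 without replicate 5, 0.0499 with RLE size factors and 0.158 with scaling by total counts alone. It was lower in 21D 2 and 6 mg/kg (-2.84 and -2.73, edgeR adjusted p = 0.00639 and 0.00923). Myf5 ranged from 0.0315 to 2.84 CPM at 21 days, below its 3.33 to 6.37 CPM in controls. Chrna1 was lower in 21D 0 and 2 mg/kg (-2.01 and -2.26, edgeR adjusted p = 0.0165 and 0.00756), but both calls were lost without control replicate 4 (edgeR adjusted p = 0.188 and 0.103). Ncam1 stood at 32.4 ± 3.49, 27.0 ± 9.78 and 29.7 ± 8.48 CPM (SD, n = 5 each) against 32.8 ± 13.2 CPM (SD, n = 3) in controls.

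**Figure D2:**
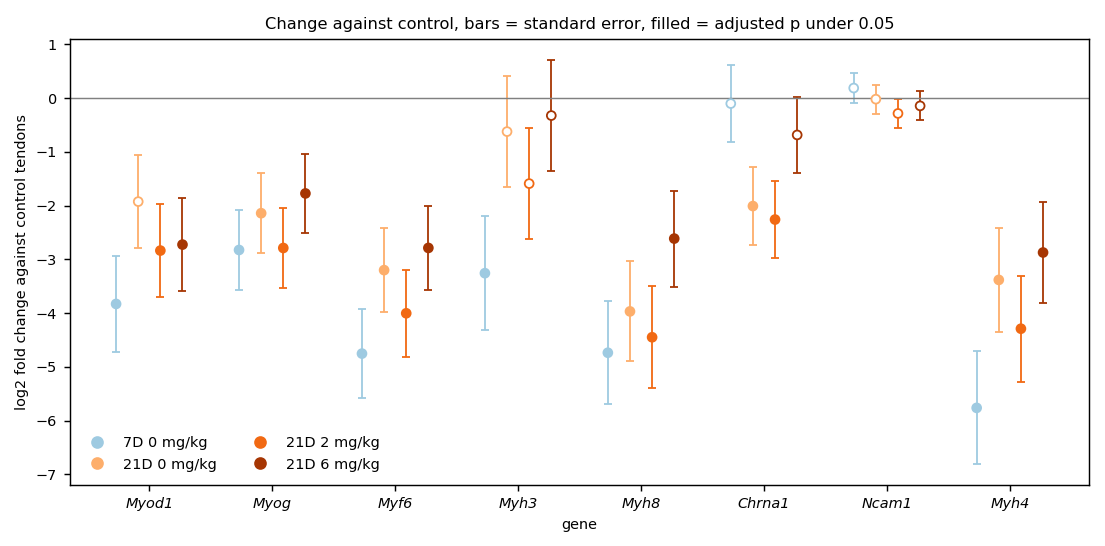
Log2 fold change against control tendons of the 7 tested genes and Myh4 in 7D 0 mg/kg and the 3 groups at 21 days, with standard errors, filled where the edgeR adjusted p was under 0.05. Myh3 has open points near -0.62, -1.59 and -0.33 at 21 days, while Myh4 is filled in all 4 groups.

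Time was compared at each dose. At 2 and 6 mg/kg, 6 of 7 genes were higher at 21 than at 7 days, against 7.09% and 8.54% of all genes. Mature muscle genes moved with them, with 26 of 26 higher in both comparisons (medians 8.53 and 9.33), and their part in the result was not tested. The exceptions were Chrna1 at 2 mg/kg (edgeR adjusted p = 0.57) and Ncam1 at 6 mg/kg (edgeR adjusted p = 0.844). Ncam1 at 2 mg/kg (0.86, edgeR adjusted p = 0.0258) lost its call in 3 of 9 fits without 1 tendon, those without 7D 2 mg/kg replicate 4 or 5 or 21D 2 mg/kg replicate 3 (edgeR adjusted p up to 0.0958). Chrna1 at 6 mg/kg (2.60, edgeR adjusted p = 0.0416) lost it in 6 of 8, keeping it only without 21D 6 mg/kg replicate 3 or 5 (edgeR adjusted p up to 0.182). At 0 mg/kg none of the 7 was called by edgeR, where 2.88% of all genes were higher, although 4 had an unadjusted p under 0.05 (Myod1, Myf6, Myh3 and Chrna1) and DESeq2 called 1. Mean Myh3 was 28.4 ± 19.5 CPM at 7 days and 176 ± 180 CPM at 21 days (SD, n = 5 each, difference 2.63 ± 0.971, edgeR adjusted p = 0.0997). Without 21D 0 mg/kg replicate 2 there were 3 calls, Myod1, Myf6 and Myh3 (2.22, 1.86 and 2.96, edgeR adjusted p = 0.0424, 0.0493 and 0.0245). Chrna1 went the other way, with all 5 tendons at 21 days (0.0315 to 1.58 CPM) below all 5 at 7 days (2.35 to 4.64 CPM), at an edgeR adjusted p of 0.0752 that became 0.0311 in DESeq2. The higher group here, 7D 0 mg/kg, was the only one through which Chrna1 was tested.

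Doses were then compared at 21 days. None of the 7 genes passed the F-test across doses in edgeR or its counterpart in DESeq2, and 1 of 7 (Chrna1) had an unadjusted p under 0.05 in edgeR. Of all genes, edgeR called 0% and DESeq2 called 138 genes. Chrna1 had 1.58, 0.0315, 0.187, 1.11 and 1.26 CPM at 21D 0 mg/kg, then 0.702, 0.374, 0.299, 0.800 and 1.33 CPM at 21D 2 mg/kg, then 1.65, 3.68, 0.912, 3.31 and 0.778 CPM at 21D 6 mg/kg (edgeR adjusted p across doses = 0.438). The dose effect differed between 7 and 21 days for 3 of 7 genes, Myog, Myf6 and Myh8 (edgeR adjusted p = 0.0454, 0.0454 and 0.0492), against 0.39% of all genes and beside an edgeR adjusted p of 0.0104 for Myh4. A fit without the control tendons made none of these calls (edgeR adjusted p = 0.0632, 0.0767 and 0.0562), and they were lost in 20, 21 and 19 of the 27 fits that each left out 1 tendon.

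The ratio of each gene to Myh4 in the same tendon does not depend on how libraries are scaled. At 7D 0 mg/kg Myog had 6.48, 2.39, 2.24, 1.94 and 5.47 counts per 1000 Myh4 counts, against 0.276, 0.191 and 0.733 in controls. All repaired tendons lay above all controls (log2 difference 3.31 ± 1.15, limma adjusted p = 0.00525, exact permutation p = 0.0179, two-sided, the smallest that 5 against 3 tendons allow). Chrna1 had 6.19, 1.43, 6.07, 1.51 and 14.6 counts per 1000 Myh4 counts against 0.0494, 0.0217 and 0.128 in controls (6.31 ± 1.17, limma adjusted p = 2.15e-06). Ncam1 rose from 0.668, 0.877 and 0.362 to 36.6, 22.2, 139, 25.1 and 106 counts per 1000 Myh4 counts (6.38 ± 1.27, limma adjusted p = 6.58e-06).

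These 3 of 7 genes were called higher on the ratio, and so were 96.6% of all genes, with Myh4 itself lower. The median gene rose by 6.22 against Myh4, close to Chrna1 and Ncam1, whose own levels had not passed the test. Myog lay between the median gene and the mature muscle list, whose 26 genes had a median difference of -0.00279. Myh3 had 24.9, 26.9, 6.07, 29.8 and 102 counts per 1000 Myh4 counts at 7D 0 mg/kg and 4.09, 6.78 and 5.06 in controls, with 1 repaired tendon inside the control range (2.35 ± 1.21, limma adjusted p = 0.0568, exact permutation p = 0.0893). In a fit of the 2 groups alone this difference passed the test (limma adjusted p = 0.00488). Myod1 (1.99, limma adjusted p = 0.0827), Myf6 (1.24, 0.298) and Myh8 (1.17, 0.318) had smaller differences that did not pass. On simulated data the ratio test called only 13 of 200 changed genes, so a ratio that did not pass does not show that a gene followed Myh4. In the 7D 2 and 6 mg/kg tendons most of these genes had too few counts for a ratio to be read, and the counts given above are their measurement.

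**Figure D3:**
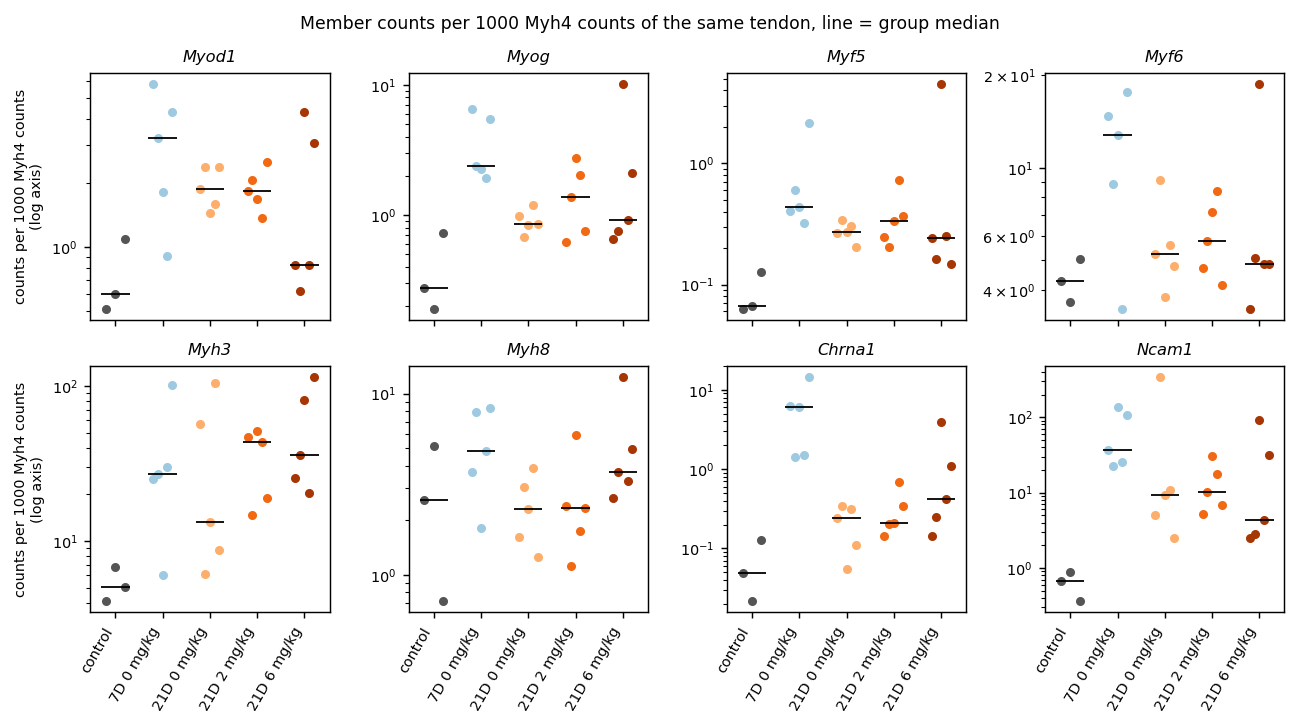
Counts of the 8 measured genes per 1000 Myh4 counts of the same tendon (log axis) in control, 7D 0 mg/kg and the 3 groups at 21 days, with the group median as a line. Chrna1 went from a median of 0.0494 in controls to 6.07 at 7D 0 mg/kg and back to 0.210 to 0.420 at 21 days, while Myh3 had medians of 13.3 to 43.2 at 21 days against 5.06 in controls.

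At 21 days the embryonic myosin was called higher relative to Myh4 at 2 and 6 mg/kg but not at 0 mg/kg. Whether its ratio differed between doses was not tested. Its differences were smaller than those of the median gene (4.47, 4.56 and 4.16 log2 units against Myh4 at 0, 2 and 6 mg/kg). They were larger than the medians of the 26 mature muscle genes (0.381, 0.591 and 0.401). A list of 12 other developmental and cardiac-type sarcomere genes had medians of 1.89, 2.03 and 2.05. Whether Myh3 differed from either list was not tested. Myh3 had 46.8, 14.6, 51.3, 43.2 and 19.0 counts per 1000 Myh4 counts at 21D 2 mg/kg and 25.6, 35.7, 81.3, 20.3 and 115 at 21D 6 mg/kg, every tendon above the 4.09 to 6.78 of controls. The differences were 2.58 ± 1.21 and 3.10 ± 1.21 log2 units (limma adjusted p = 0.0383 and 0.0146, exact permutation p = 0.0179 for each). In 21D 0 mg/kg Myh3 ran from 6.09 to 104, with replicate 2 inside the control range, and missed the test (2.05 ± 1.21, limma adjusted p = 0.097, and 0.027 without replicate 2). In 21D 2 mg/kg the Myh3 call was lost in 6 of the 8 fits that left out 1 tendon (limma adjusted p up to 0.104) and with the mean of the mature muscle list in place of Myh4 (1.75, limma adjusted p = 0.16). In 21D 6 mg/kg it was lost in 1 of 8 such fits, without control replicate 2 (limma adjusted p = 0.0519), and in the fit of the 2 groups alone (limma adjusted p = 0.0728).

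The perinatal myosin was not called on the ratio by limma, which does not show that it followed Myh4. Myh8 had medians of 2.32, 2.33 and 3.71 counts per 1000 Myh4 counts in 21D 0, 2 and 6 mg/kg against 2.58 in controls, with log2 differences of 0.14, 0.14 and 1.12 (limma adjusted p = 0.907, 0.905 and 0.343). Without 1 tendon these ran from -0.65 to 0.78, from -0.64 to 0.78 and from 0.34 to 1.76. Myf6 gave 0.37, 0.45 and 0.49 (limma adjusted p = 0.755, 0.708 and 0.682). Myod1 lay above every control in 21D 0 mg/kg (1.52, exact permutation p = 0.0179) but missed the limma test (limma adjusted p = 0.186). Myog gave 1.61 there (limma adjusted p = 0.169). Its replicate 2, with 2 counts, had 0.677 counts per 1000 Myh4 counts and lay below the control with 0.733, and above it only once the prior count of 2 was added. Whether Myh3 differed from Myh8 in this was not tested.

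In all, 1, 3 and 3 of the 7 genes were called higher on the ratio in 21D 0, 2 and 6 mg/kg, where 93.4%, 92.8% and 91.7% of all genes were. Ncam1 was called in each group (4.49, 4.27 and 4.03, limma adjusted p = 0.00143, 0.00198 and 0.00392), and Chrna1 at 2 and 6 mg/kg (2.51 and 3.51, limma adjusted p = 0.0378 and 0.00556), the first of these lost in 4 of 8 fits without 1 tendon (limma adjusted p up to 0.171) and in 3 of 5 other alternatives (limma adjusted p up to 0.161). For Ncam1 at 6 mg/kg the exact permutation p was 0.0536. Between 21 and 7 days at 0 mg/kg no ratio was called, where 0.0159% of all genes were. Myog (-1.70) and Chrna1 (-4.15) lay lower in all 5 tendons at 21 days than in all 5 at 7 days (limma adjusted p = 0.226 and 0.191, exact permutation p = 0.00794 for each). The median gene differed by -1.72 against Myh4 in this comparison, so Myog moved like the median gene. How many of all genes did not overlap between these groups was not counted, and Chrna1 was tested only through the 7-day group, where it was high.

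Among the 15 tendons at 21 days, these genes followed Myh4 to different degrees. Pearson's r of log2 CPM with Myh4 was 0.972 for Myf6, 0.943 for Myod1, 0.905 for Myh8, 0.879 for Myog, 0.852 for Myh3, 0.712 for Chrna1 and 0.352 for Ncam1, and Spearman's rho was 0.989, 0.893, 0.925, 0.939, 0.807, 0.764 and 0.379 in the same order. Permutation p-values adjusted over these 7 relations were 1.75e-05 for Myf6, Myod1, Myh8 and Myog, whose raw 1e-05 is the smallest the permutations can give, 9.8e-05 for Myh3, 0.00359 for Chrna1 and 0.2 for Ncam1. For Spearman's rho they were at most 0.00149 apart from 0.165 for Ncam1. Without the 2 tendons farthest from the median of Myh4, 21D 0 mg/kg replicate 2 and 21D 6 mg/kg replicate 3, r was 0.972 for Myf6, 0.902 for Myog, 0.868 for Myod1, 0.863 for Myh8, 0.657 for Chrna1, 0.655 for Myh3 and 0.456 for Ncam1. Taken as deviations from the mean of each dose group, r was 0.973 for Myf6, 0.863 for Myh3 and 0.798 for Chrna1. Both values of a tendon come from the same library. The share of mature muscle genes spread from 0.0681 to 9.78% over these tendons, so a p-value against no relation could hardly be high for a gene of muscle cells. How many of all genes reach such r was not counted, and whether the r values differ from each other was not tested.

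**Figure D4:**
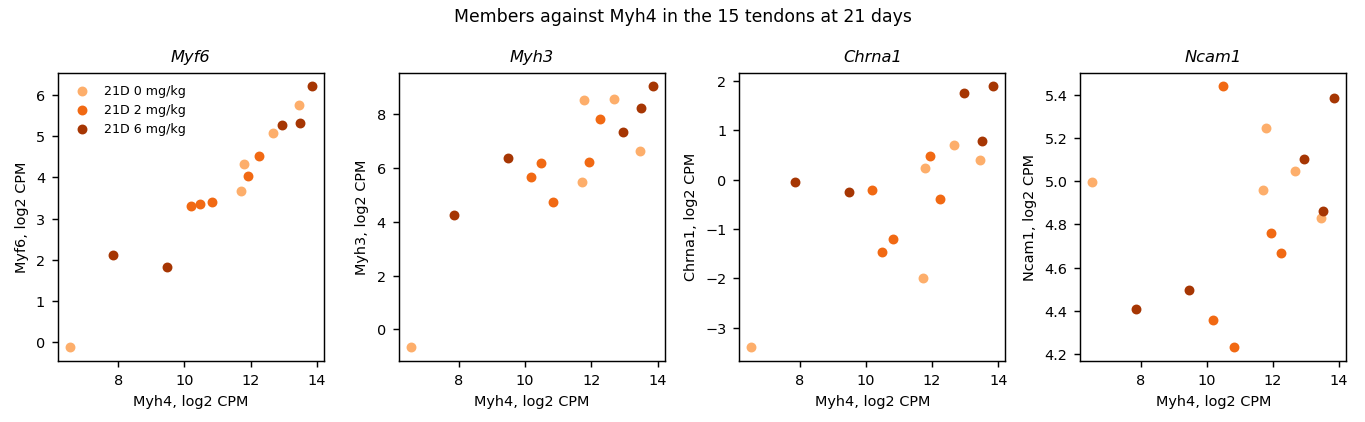
Log2 CPM of Myf6, Myh3, Chrna1 and Ncam1 against log2 CPM of Myh4 in the 15 tendons at 21 days, coloured by dose. Myf6 follows Myh4 closely (r = 0.972), Myh3 (r = 0.852) and Chrna1 (r = 0.712) scatter more, and Ncam1 shows little relation (r = 0.352).

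Other genes of muscle formation were read from chosen lists. Of 24 genes of satellite cells, myoblasts and fusion, 18 were lower and 3 higher in 7D 0 mg/kg than in control, where 35.6% and 35.8% of all genes were lower and higher, and the median change was -2.27 against 0.05 over all genes. Des, the muscle intermediate filament, fell from 6120 to 363 CPM (-4.07 ± 0.671, edgeR adjusted p = 8.14e-06), and Mef2c, a partner of the myogenic factors, from 1157 to 74.7 CPM (-3.95 ± 0.530, 4.31e-07). Cdon, a receptor of muscle precursors and of fibroblasts, rose from 65.1 to 133 CPM (1.03 ± 0.301, 0.00392). At 21D 0 mg/kg the same list had 18 lower and 3 higher genes, where 33.7% and 32.2% of all genes were.

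Of 12 further developmental and cardiac-type sarcomere genes, 10 were lower at 7D 0 mg/kg (median -3.65) and 6 at 21D 0 mg/kg (median -1.83), against 35.6% and 33.7% of all genes. Mybpc1, slow myosin binding protein C, fell by 5.29 ± 1.04 (-5.29) at 7 days and 2.71 ± 0.953 (-2.71) at 21 days (edgeR adjusted p = 7.32e-05 and 0.0149). Xirp1 and Csrp3, proteins of the muscle scaffold, fell at 7 days (-4.23 and -4.07, edgeR adjusted p = 0.000182 and 6.33e-05) and were -1.26 and -1.66 at 21 days (0.192 and 0.0526).

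Of 18 genes of the acetylcholine receptor, the synapse and the response to denervation, 10 were lower and 1 higher in 7D 0 mg/kg, against 35.6% and 35.8% of all genes. Trim63, a muscle ubiquitin ligase, fell by 4.97 ± 0.864 (-4.97, edgeR adjusted p = 1.64e-05), while Cdkn1a (0.10) and Gadd45a (-0.05), which many cell types express, did not pass. Chrnd, the delta subunit that assembles with Chrna1, had means of 4.71 CPM in control and 3.20 CPM at 7D 0 mg/kg (-0.53 ± 0.844, edgeR adjusted p = 0.582). It was named after its values were seen, and was lower in 7D 2 mg/kg than in 7D 0 mg/kg (0.0434 against 3.20 CPM, edgeR adjusted p = 0.00612). Of the 18 genes, 3 were lower in that comparison (median -0.524), where 1.45% of all genes were. The call of Chrna1 there was lost in the fits without 1 tendon.

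Partners and inhibitors of the myogenic factors moved in both directions. Of 17 tested, 6 were lower and 6 higher at 7D 0 mg/kg, close to the 35.6% and 35.8% of all genes. Tcf3, which encodes the E proteins that pair with Myod1, rose from 35.4 to 90.3 CPM (1.35 ± 0.129, edgeR adjusted p = 2.49e-09), Id3, an inhibitor of E proteins, rose from 68.4 to 105 CPM (0.62 ± 0.189, 0.00511), and Zeb1 did not pass (-0.10, 0.57). These genes are expressed in many cell types. Between 2 and 0 mg/kg at 7 days their median difference was 0.07 on the log2 scale, against -7.67 for the 7 myogenic and developmental genes. In the same comparison the 26 mature muscle genes had a median of -6.65, and Myh4 was at -8.68.

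Schwann and nerve genes, from cells that can also carry Ncam1, were read beside it. Of 10 tested, 2 were higher at 7D 0 mg/kg, against 35.8% of all genes, and Pmp22, S100b and Gap43 did not pass (0.10, 0.61 and 0.33, edgeR adjusted p = 0.681, 0.123 and 0.336). The 12 genes in the table summed to 550 to 680 CPM at 7D 0 mg/kg and 748 to 1095 CPM at 7D 2 mg/kg, the group in which Ncam1 was lowest, and no listed gene was at 0 counts. The sums were not tested. Of the 10 tested genes, 0 were called between 2 and 0 mg/kg at 7 days. Across the 3 doses at 7 days 0 of 10 passed the edgeR F-test, against 2.05% of all genes. Their part in the level of Ncam1 was not tested.

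The genes most alike in pattern to each were named by Pearson's r of log2 CPM over all 30 tendons, as a description. Those nearest to Myod1 were Ppp1r3a, Mybpc1 and Trim54 (r = 0.984 to 0.986), to Myog Actc1, Art1 and Art5 (0.973 to 0.976), to Myf6 Ampd1, Mybpc2 and Hhatl (0.979 to 0.983), to Myh3 Synpo2l, Ankrd1 and Tceal7 (0.968 to 0.973), and to Myh8 Srl, Ano5 and Ryr1 (0.974 to 0.975). Chrna1 was nearest to Chrnd (0.748), and Ncam1 to Nav3 (0.799), both at a lower r. Myh4 ranked 11 for Myh8, 14 for Myod1, 23 for Myh3, 38 for Myog and 47 for Myf6 among 12551 genes, but 163 for Chrna1 and 123 for Ncam1.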

How the data were processed

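RNA sequencing counts were analysed for the right plantaris tendons of 30 rats, grouped by the time and dose in the sample labels (3 control, 5, 4 and 3 at 7 days, 5 per dose at 21 days). The authors mapped reads to rn6 with STAR and deposited raw counts in exons per gene without normalization. Their table of edgeR comparisons holds fold changes and p-values that were not used. Its deposited gene names, chromosomes and other values, such as the width of each gene, served as annotation. A separate removal of samples on read quality is described by the authors, and the labels were followed. The genes followed here and all lists were chosen with earlier results of these data known.

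Tests ran under R 4.3.3 and used edgeR 4.0.16. Of 13124 genes, 12558 had a mean of at least 3 CPM on total counts in at least 1 of the 7 groups. Library sizes were TMM-scaled, and one quasi-likelihood model over all tendons, with no covariate, gave each contrast, with Benjamini-Hochberg adjustment over all genes kept. A gene was called at an adjusted p under 0.05 with no fold threshold. Ratios to Myh4 were log2 CPM (prior count 2) minus that of Myh4, tested with limma 3.58.1 over all genes. Standard errors are the size of the change divided by the root of the F statistic. Correlations used permutation tests. Named genes were the 9 chosen, Myh4, the 3 most abundant of each list, and the 3 most correlated with each. Chrnd was named additionally after its values were seen.

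Replicates were checked for duplication, with a chi-square of at least 29.6 per gene between any same-group pair. On simulated data for 7D 0 mg/kg against control, edgeR called 141 of 200 changed genes and 10 of 11635 unchanged ones. The ratio test called 13 of 200 and 0 of 200, so it missed most changes, and a ratio not called is no sign of no change. The floor of 3 counts covers counting error only, not the spread between tendons, and no molecular identifiers are described for the reads. The labels do not say more about how replicates were raised, and p-values measure the spread between these tendons. Alternatives were RLE factors, library size only, no filter, DESeq2 1.42.0, only the groups compared, a replicate block, prior count 0.25, the mature muscle list as reference, and leaving out each tendon. An exact permutation test of the ratio was added after seeing the data.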

Additional observations from a re-analysis of the deposited data

Results flagged for a closer look

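Of 70 sets, each 1 gene in 1 group of 4 or 5 tendons, 12 held a tendon far from the others. The cutoff is meant for normally distributed values in separate sets. Counts near 0 and ratios that share a Myh4 count are neither, so the 12 were not compared with chance. In 21D 6 mg/kg, replicate 3 stood apart on the ratio for 5 genes, with per 1000 Myh4 counts 3.948 counts of Chrna1, 4.487 of Myf5, 18.66 of Myf6, 12.38 of Myh8 and 10.05 of Myog. Its own Myh4 level was 231 CPM, the lowest of its group. In 7D 0 mg/kg, replicate 5 stood apart for Myh3 with 102.2 and for Myf5 with 2.15 counts per 1000 Myh4 counts, and it had the lowest Myh4 of that group at 254 CPM. The 21D 0 mg/kg replicate 2 had 342.8 Ncam1 counts per 1000 Myh4 counts at 93.0 CPM of Myh4, and the 21D 2 mg/kg replicate 3 had 5.919 Myh8 counts per 1000 Myh4 counts.

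On the CPM scale, Myh3 stood apart in 21D 2 mg/kg replicate 1 at 227.1 CPM, where the other 4 tendons had 26.6 to 74.2 CPM. In 7D 2 mg/kg, Myh8 at 0.03684 CPM in replicate 2 and Myog at 0.02804 CPM in replicate 3 were each 1 count beside tendons with 0 counts.

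The effect of dose differed between 7 and 21 days for Myog (edgeR adjusted p = 0.0454), Myf6 (0.0454) and Myh8 (0.0492), tested as the interaction of dose and time over all genes, of which 0.39% were called. These calls were lost in 20, 21 and 19 of 27 fits without 1 tendon, and a fit without the control tendons made none of them (edgeR adjusted p = 0.0632, 0.0767 and 0.0562).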

How the results depend on the processing

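Results are given as genes called of the 7 tested. Against control, the 21D 0 mg/kg count of 4 became 2 with library size only or with only the groups compared, and 2 to 5 when 1 tendon was left out, the 2 being without control replicate 4. The 21D 6 mg/kg count of 4 became 2 with only the groups compared. For 21 against 7 days at 0 mg/kg the count of 0 became 1 with DESeq2 and 0 to 3 without 1 tendon, the 3 being without 21D 0 mg/kg replicate 2. For 6 against 0 mg/kg at 7 days the count of 1 became 2 with only the groups compared, 6 with DESeq2 and 0 to 1 without 1 tendon. The interaction count of 3 became 0 with only the groups compared, 6 with DESeq2 and 0 to 4 without 1 tendon. On the ratio to Myh4, 7D 0 mg/kg went from 3 to 5 and 21D 6 mg/kg from 3 to 1 with only the groups compared. With the mature muscle list as reference, 7D 2 mg/kg went from 7 to 4, 21D 2 mg/kg from 3 to 1, and 21 against 7 days at 0 mg/kg from 0 to 1. A prior count of 0.25 took 7D 2 mg/kg from 7 to 4 and 21 against 7 days at 2 mg/kg from 6 to 3. In the main fit, 12532 of 12557 genes were called on the ratio at 7D 2 mg/kg. For 21 against 7 days at 2 mg/kg, 12522 were. Most of the 7 had too few counts in 7D 2 mg/kg for a ratio to be read, so these calls are no measurement of them. Without 1 tendon the ratio counts were 1 to 2 at 21D 0 mg/kg, 1 to 3 at 21D 2 mg/kg and 0 to 2 for 21 against 7 days at 0 mg/kg. No called value changed sign under these alternatives, and 35 fold changes and 16 ratios that were not called did. The cause of these changes was not tested.

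Replicate numbers showed no clear pairing of the tendons. Deviations of tendons with the same number had a median r of 0.00685, with 29 of 76 pairs over 0.1. For other numbers the median r was 0.00878, with 89 of 307 pairs over 0.1, and the difference was not tested. A replicate block gave 1 call for 21 against 7 days at 0 mg/kg, 2 for 6 against 0 mg/kg at 7 days, 1 for the interaction and 1 on the ratio at 21D 2 mg/kg.

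Over all genes, DESeq2 called 1496 instead of 672 for 21 against 7 days at 0 mg/kg, 710 instead of 296 for 2 against 0 mg/kg and 194 instead of 49 for 6 against 0 mg/kg at 7 days, 572 instead of 258 across doses at 7 days and 181 instead of 49 for the interaction. Where edgeR called 0, it called 69 for 6 against 2 mg/kg at 7 days and, at 21 days, 138 across doses, 19 for 2 against 0, 1 for 6 against 0 and 254 for 6 against 2 mg/kg. Only the groups compared gave 94 for 6 against 0 mg/kg at 7 days, 31 for the interaction, 18 for 6 against 2 mg/kg and 1 across doses at 21 days. The replicate block gave 28 for the interaction and 1 for 6 against 2 mg/kg at 7 days, and library size only gave 3 for 6 against 2 mg/kg and 1 across doses at 21 days. Without 1 tendon, the counts over all genes were 203 to 1411 for 21 against 7 days at 0 mg/kg, 795 to 1973 at 6 mg/kg and 953 to 1545 at 2 mg/kg, 125 to 464 for 2 against 0 mg/kg and 0 to 60 for 6 against 0 mg/kg at 7 days, 161 to 315 across doses at 7 days and 16 to 79 for the interaction. At 7D 2 mg/kg, Myod1, Myog, Myf5 and Myh8 had at most 1 count per tendon, and depth limits what can be told apart there.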
